A study of Homo sapiens with 8 samples.

Results

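HGF, SGK1, CHST2 and OLIG1 are 4 of the 16726 genes listed for poly(A) RNA of the human leukemia lines NB4 and MM6 after knockdown of METTL14. They were picked by symbol because their level was much higher in NB4 cells with the METTL14 hairpin, so their NB4 values describe the choice and carry no test. Their MM6 values were not the ground for the choice, but earlier results of these data were known when it was made. The study holds 8 libraries in 4 groups of 2: NB4 and MM6 cells, each with the METTL14 hairpin (labelled shM14-#2, written shM14 here) or with the non-specific hairpin shNS. All 8 samples received a lentiviral pLKO.1 hairpin and 0.5 µg/mL puromycin for 2 passages, the control groups included. The labels name 1 METTL14 hairpin only, give acute monocytic leukemia as the tumor of both lines, and do not say whether the 2 libraries of a group came from separate cultures. The p-values below therefore measure the spread between these libraries, which may be technical.

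METTL14 is the partner of METTL3 in the nuclear complex that writes N6-methyladenosine on RNA, mostly at adenosines in a short purine-rich context of which GGACU is a common form. HGF encodes hepatocyte growth factor, a secreted ligand that is made as an inactive chain, cleaved outside the cell and bound by the receptor tyrosine kinase MET; it is known as a product of stromal cells and of some myeloid leukemia cells. SGK1 encodes a serine/threonine kinase of the AGC family that is transcribed rapidly after glucocorticoid, serum or stress signals, is activated through mTORC2 and PDPK1, and phosphorylates NEDD4L, NDRG1 and FOXO factors. CHST2 encodes a Golgi sulfotransferase that adds sulfate to N-acetylglucosamine, a step in making sulfated ligands of L-selectin. OLIG1 encodes a basic helix-loop-helix transcription factor best known from the oligodendrocyte lineage of the brain.

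The stretches before the transcription starts are shown because the 4 genes moved in the same direction in NB4 while their starts differ in base composition. RefSeq promoters on GRCh38.p14 were at hand for 3 of the 4 genes. Capitals mark matches to a searched motif, and positions count from the transcription start, with -1 as the last base before it. HGF lies on the minus strand of chromosome 7, and the 250 bases before its start (chr7:81770048-81770297) held 50.0% G or C and 6 CpG. CHST2 lies on the plus strand of chromosome 3, and its 250 bases (chr3:143119521-143119770) held 78.0% G or C and 42 CpG. SGK1 has 3 starts in the table on the minus strand of chromosome 6, and the innermost (chr6:134174867-134175116) held 76.0% G or C and 35 CpG.
HGF: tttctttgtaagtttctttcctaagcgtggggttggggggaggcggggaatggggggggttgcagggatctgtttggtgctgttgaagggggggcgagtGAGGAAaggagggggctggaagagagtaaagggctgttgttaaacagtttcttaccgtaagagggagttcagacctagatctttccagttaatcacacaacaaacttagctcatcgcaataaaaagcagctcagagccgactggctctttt
CHST2: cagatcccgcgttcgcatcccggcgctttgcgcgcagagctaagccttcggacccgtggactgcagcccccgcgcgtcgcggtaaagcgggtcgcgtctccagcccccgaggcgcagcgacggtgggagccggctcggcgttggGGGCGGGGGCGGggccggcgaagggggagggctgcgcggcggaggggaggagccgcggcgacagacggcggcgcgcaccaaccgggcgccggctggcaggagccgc
SGK1, innermost start: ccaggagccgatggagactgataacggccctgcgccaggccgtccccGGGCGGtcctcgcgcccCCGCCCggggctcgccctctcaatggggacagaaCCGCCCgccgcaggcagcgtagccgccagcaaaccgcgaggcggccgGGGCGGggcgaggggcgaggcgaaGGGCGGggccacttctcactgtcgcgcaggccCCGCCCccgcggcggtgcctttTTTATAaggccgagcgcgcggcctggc

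The median over all 35114 promoters of the same length was 58.0% G or C. The HGF stretch was thus poorer in G and C than the typical promoter, and the CHST2 and innermost SGK1 stretches were richer. The other SGK1 starts held 41.6% and 33.6% G or C. Motifs were searched on both strands, and a match is a description of the letters, not a site. The GC box GGGCGG, bound by SP family factors, matched 2 times in CHST2 and 6 times before the innermost SGK1 start, and it occurs in 42.6% of all promoters. A TATA box match (TATAAA, in 10.7% of promoters) lay at -27 before the innermost SGK1 start, at -15 before the middle one and at -96 before the outermost one. A match to TTGCNNAA, a form bound by C/EBP factors and held by 9.05% of promoters, lay at -152 before the outermost SGK1 start. HGF held 1 match to GAGGAA, a core recognised by the myeloid factor PU.1, at -151; 23.6% of promoters hold this motif. No match was found in these stretches to CCAAT, the form bound by NF-Y, or to TGANTCA, the form bound by AP-1. The cAMP response element TGACGTCA and the STAT form TTCNNNGAA had no match either. The same held for AGAACA, part of the glucocorticoid receptor element, and for the NF-kB motif. The 3 genes therefore shared no matched motif, and the only match that CHST2 and SGK1 had in common was the GC box.

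The letters GGACT, the DNA form of GGACU, were counted on the longest coding transcript of each gene in GENCODE v29 (GRCh38), because this is the context in which the METTL14 complex often acts. No measurement of methylation is used here, so these are positions of letters only. SGK1 held 5, all in the coding part, or 1.56 per kb. CHST2 held 4, or 0.873 per kb, HGF held 3, or 0.501 per kb, and OLIG1 held 1, or 0.439 per kb. The median over 19669 genes was 0.939 per kb, so SGK1 lay above 79.6% of genes, CHST2 above 46.0% and HGF above 23.3%, with OLIG1 the lowest of the 4. The match nearest to the last coding base of each gene is given with 8 bases on each side, GGACT in capitals.
HGF: caagatctGGACTaacatgtt
SGK1: cctcccacGGACTctttcctc
CHST2: attttgtgGGACTgttggtga
OLIG1: agaggaagGGACTgtcgggca

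The HGF match is at chr7:81720779-81720799 on the minus strand, in the coding part of exon 10 of 18. In SGK1 it is at chr6:134170271-134170291 on the minus strand, in the coding part of exon 14 of 14. For CHST2 it is at chr3:143122138-143122158 on the plus strand, in the coding part of exon 2 of 2. OLIG1 is a gene of 1 exon, and its single match is at chr21:33071188-33071208 on the plus strand, in the 3′ UTR.

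The libraries held 23272126 to 28814911 reads over the listed genes and 16185 to 16403 genes with a read. METTL14 itself stood at 14.1 and 12.5 RPKM (reads scaled to the length of the gene model and to the depth of the library) in NB4 shNS and at 8.35 and 8.35 in NB4 shM14. In MM6 it stood at 12.5 and 13.4 RPKM in shNS and at 6.54 and 6.55 in shM14. On the scale of log2(RPKM + 1) it fell by 0.61 in NB4 (limma adjusted p = 0.0024), and the MM6 difference was -0.88 (limma adjusted p = 0.088). All 6 promyelocyte and granulocyte markers were listed, with a summed level of 2332 to 2685 RPKM in NB4 and 4368 to 5022 in MM6. MPO made up most of it in NB4 (2117 to 2490 RPKM), while ELANE, PRTN3 and AZU1 were higher in MM6. By hairpin these markers did not move together. CTSG went from 41.9 and 44.9 to 6.73 and 6.85 RPKM in NB4. In MM6 it went from 107 and 239 to 18.9 and 70.7. PRTN3 went from 46.1 and 44.1 to 127 and 129 RPKM in NB4. In MM6 it went from 889 and 903 to 1217 and 1114. MPO and AZU1 were lower with shM14 in both lines, and ELANE and CEBPE did not go the same way in both. NB4 expressed CD14, which defines monocytes, at 0.105 to 0.977 RPKM; MM6 expressed LYZ, a monocyte lysozyme, at 5836 to 14301 RPKM and CD14 at 12.2 to 63.2. The monocyte marker CD14 was thus present in MM6 and near 0 in NB4, although both carry the same tumor label. All 7 monocyte markers were listed, and their summed level went from 50.6 to 52.4 RPKM in NB4 shNS to 142 in both NB4 shM14 libraries, and from 5903 to 9302 in MM6 shNS to 8264 to 14468 in MM6 shM14. LYZ made up nearly all of the MM6 sum, the MM6 ranges overlapped with library number 1 the higher in each group, and CD68 went from 66.7 and 42.4 to 56.6 and 34.2 RPKM there. Because RNA of a whole culture was measured, fewer cells of a type and less RNA per cell cannot be told apart, and the part of these marker levels in the members' values was not tested.

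HGF was much higher with the METTL14 hairpin in NB4 and under 1 RPKM in every MM6 library. Its level was 6.92 and 6.63 RPKM in the NB4 shNS libraries and 52.1 and 51.3 in the NB4 shM14 libraries. The groups were far apart and the 2 libraries of each group nearly equal. The RPKM ratio of shM14 over shNS was 7.63 ± 0.24 (propagated SD, n = 2 against 2). By its increase of 2.76 on the log2(RPKM + 1) scale, HGF held rank 3 among the 11531 genes tested in NB4. That scale lowers the place of genes with few reads, so the rank is not one by RPKM ratio. In MM6 the level was 0.562 and 0.388 RPKM in shNS and 0.593 and 0.962 in shM14. Both MM6 shM14 libraries lay above both shNS libraries, as they did for 18.9% of genes with a read, but the nearest libraries differed by less than the libraries within a group. These values rest on 61 and 46 reads in shNS and 77 and 102 in shM14. Scaled to library depth, the ratio of MM6 reads was 1.61 with a 95% exact interval of 1.26 to 2.07, which covers counting error only. Between libraries of the same number it was 1.05 and 2.48 in RPKM, a spread as wide as the difference. Every MM6 library was under the minimum of 1 RPKM, so HGF was not tested in the main MM6 comparison; without that minimum the limma adjusted p was 0.52 at a difference of 0.26 on the log2(RPKM + 1) scale. The authors' deposited table gives a log2 fold change of 0.73 and an adjusted p of 0.53 for HGF in MM6.

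HGF was 14.3 times as abundant in NB4 shNS as in MM6 shNS, and 66.6 times as abundant between the shM14 groups. Its order of levels was NB4 shM14, NB4 shNS, MM6 shM14 and MM6 shNS, and the last neighbours in that order did not differ beyond their spread. Of 6 stromal and fibroblast markers 2 were listed, COL1A1 and PDGFRB, with a summed level of 0.259 to 1.09 RPKM over all 8 libraries and 0.293 to 0.324 in NB4 shM14.

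**Figure D1:**
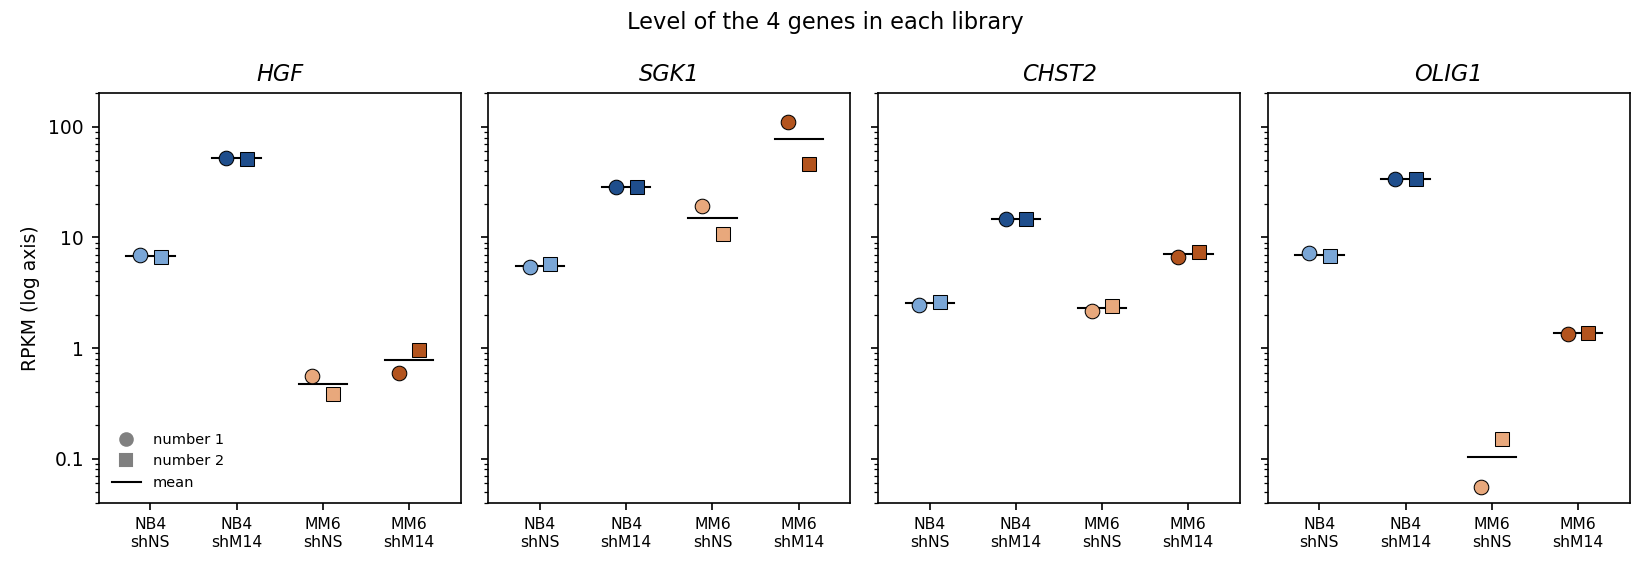
Level of the 4 genes in each library, in RPKM on a log axis, by line and hairpin; circles and squares are libraries number 1 and 2 and the bar is the group mean. The NB4 groups are far apart for all 4 genes, while in MM6 HGF stays between 0.388 and 0.962, SGK1 differs between the libraries of a group, and OLIG1 goes from at most 0.152 to 1.35 and 1.38.

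SGK1 was higher with the METTL14 hairpin in both lines by about the same ratio, but its MM6 libraries were uneven. In NB4 its level was 5.35 and 5.75 RPKM with shNS and 28.5 and 28.3 with shM14, a ratio of 5.11 ± 0.26 (propagated SD, n = 2 against 2). In MM6 it was 19.2 and 10.7 RPKM with shNS and 110.0 and 45.6 with shM14. Both MM6 shM14 libraries lay above both shNS libraries, and library number 1 was the higher one in each group. The MM6 ratio was 5.21 ± 3.70 (propagated SD, n = 2 against 2), and it was 5.73 between the number 1 libraries and 4.28 between the number 2 libraries. On the log2(RPKM + 1) scale the MM6 difference was 2.23 (SE 0.46), rank 8 among the 11895 genes tested. It did not pass the test (limma adjusted p = 0.15), in a comparison that called 9 genes, or 0.0757%, in either direction. The number 1 library held 1.80 times the SGK1 of number 2 in MM6 shNS and 2.41 times in MM6 shM14, a wider gap than 97.1% and 98.5% of genes show, where the median gap was 1.14 and 1.17 times.

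The same MM6 libraries stood apart for DUSP1, a phosphatase gene induced early by stress and glucocorticoids, with 111 and 7.19 RPKM in shNS and 200 and 12.6 in shM14. TSC22D3, a classic glucocorticoid target, showed 27.4 and 5.63 RPKM in MM6 shNS and 31.5 and 6.66 in MM6 shM14. KLF9, another glucocorticoid target, showed 14.6 and 2.52 RPKM in MM6 shNS and 12.9 and 2.31 in MM6 shM14. These 3 genes were picked after their values were seen, and other glucocorticoid receptor and response genes went either way between the MM6 library numbers. PER1 was higher in number 1 in both groups, with 10.9 and 3.07 RPKM in MM6 shM14. FKBP5 and HSD11B1 were higher in number 2 in both groups. FKBP5 showed 7.87 and 9.22 RPKM in MM6 shNS, and HSD11B1 showed 13.9 and 21.2 in MM6 shM14. DUSP1, TSC22D3 and KLF9 differed more by library number than by hairpin, and their part in the SGK1 values was not tested. In NB4 the 2 libraries of a group differed in SGK1 by 1.07 times with shNS and by less than that with shM14. With all 8 libraries in 1 model, which shares the spread between lines, the same MM6 difference had an adjusted p of 0.020 (limma); over 14 alternatives it ran from 0.0032 to 0.29. The authors' deposited table gives SGK1 in MM6 a log2 fold change of 2.44 with an adjusted p of 3.8e-06, against 1.58% of genes called higher there.

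By level, SGK1 was the member that MM6 expressed more: 2.69 times the NB4 level between the shNS groups and 2.74 times between the shM14 groups. The order was MM6 shM14, NB4 shM14, MM6 shNS and NB4 shNS, with no overlap between neighbours, although the MM6 shM14 libraries alone spanned 45.6 to 110.0 RPKM.

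CHST2 was higher with the METTL14 hairpin in both lines, and the 2 libraries of each group were close. Its NB4 level was 2.45 and 2.62 RPKM with shNS and 14.7 and 14.8 with shM14, a ratio of 5.83 ± 0.28 (propagated SD, n = 2 against 2). Its MM6 level was 2.18 and 2.41 RPKM with shNS and 6.66 and 7.46 with shM14. All 4 MM6 libraries were above the minimum of 1 RPKM, and the groups did not overlap. The MM6 ratio was 3.07 ± 0.33 (propagated SD, n = 2 against 2); a ratio of at least 2 was found for 1.91% of the genes tested in MM6, and no overlap in this direction for 19.0%. On the log2(RPKM + 1) scale the difference was 1.29 (SE 0.14) with a limma adjusted p of 0.063, which is short of the threshold of 0.05. It passed with all 8 libraries in 1 model (limma adjusted p = 0.0013) and with voom on whole reads (adjusted p = 0.043), within a range of 0.0013 to 0.16 over 14 alternatives. The authors' deposited table gives a log2 fold change of 1.65 and an adjusted p of 7.3e-08.

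The shNS levels of CHST2 were close between lines, at a ratio of 1.10 for NB4 over MM6, and the shM14 levels differed by 2.09 times. The order was NB4 shM14, MM6 shM14, NB4 shNS and MM6 shNS. The 2 shNS groups were next to each other at 2.45 and 2.41 RPKM for their nearest libraries, a gap smaller than the spread within each group.

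OLIG1 was abundant in NB4 only, and its MM6 ratio starts from almost no reads. The NB4 level was 7.22 and 6.73 RPKM with shNS and 33.7 and 33.8 with shM14, a ratio of 4.84 ± 0.24 (propagated SD, n = 2 against 2). The MM6 level was 0.0552 and 0.152 RPKM with shNS and 1.35 and 1.38 with shM14. These MM6 values come from 3 and 9 reads in shNS and 88 and 73 reads in shM14. Scaled to library depth, the ratio of reads was 12.9 with a 95% exact interval of 7.20 to 25.5, counting error only; the shM14 libraries were close to each other and the shNS libraries differed by 2.74 times. OLIG1 passed the minimum of 1 RPKM in MM6 through its shM14 libraries alone, so it could enter the test only by being high there. Its MM6 difference was 1.10 (SE 0.13) on the log2(RPKM + 1) scale with a limma adjusted p of 0.065. With all 8 libraries in 1 model the adjusted p was 0.0017 (limma), in a range of 0.0017 to 0.17 over 11 alternatives. The size depends on the scale at so low a level: the difference was 2.89 with a pseudocount of 0.1 and 3.74 with voom. The authors' deposited table gives a log2 fold change of 3.72 with an adjusted p of 8.0e-10.

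Between lines, OLIG1 was 67.4 times as abundant in NB4 shNS as in MM6 shNS and 24.7 times between the shM14 groups. The order was NB4 shM14, NB4 shNS, MM6 shM14 and MM6 shNS, without overlap. The defining glial markers were near 0: SOX10 was at 0.0123 to 0.239 RPKM and MOG at 0.00758 to 0.0253 in all 8 libraries, and MBP, which blood cells also express, went from 25.7 and 26.5 RPKM in NB4 shNS to 20.2 and 20.4 in NB4 shM14.

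All 4 members thus lay above their controls without overlap in both lines, HGF in MM6 only narrowly (0.593 against 0.562 RPKM for the nearest libraries). In NB4, where this was the ground for choosing them, they held ranks 3, 6, 7 and 8 of 11531 by log2 increase; 22.1% of genes were called higher, 25.2% lower and 37.2% did not overlap in this direction. In the main fit of the MM6 libraries alone, which has no term for library number, none of the 3 members tested passed. There 6 genes, or 0.0504%, were called higher, 0.0252% lower, and 15.0% of genes had an unadjusted p under 0.05. No overlap in this direction was found for 19.0% of the genes tested in MM6. With library number as a replicate block, a pairing the labels do not state, all 3 passed. OLIG1 reached the minimum of 1 RPKM through its MM6 shM14 libraries alone. It could thus enter these fits only by being high there, which limits its pass. The limma adjusted p was then 0.0032 for SGK1, 0.0044 for CHST2 and 0.0060 for OLIG1, and 1405 genes were called.

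The other genes with a large NB4 increase give a frame for the members' MM6 values. With the 4 members left out, 70 genes tested in both lines had an NB4 increase of at least 1 on the log2(RPKM + 1) scale. Their median MM6 difference was 0.69, 62 of them were above 0 and 29 were at least 1. Over all 10644 genes tested in both lines the median MM6 difference was -0.025, 45.6% were above 0 and 0.817% were at least 1. The RPKM minimum in MM6 leaves out NB4 risers that stay near 0 there, such as OLIG2 and MSC. A gene low in MM6 shNS could enter through its shM14 libraries alone, so the counts of the 70 genes can lean upward. Of the 7 other genes at or above an NB4 increase of 2, 6 were at least 1 in MM6 and none passed the MM6 test. They were THBS1, a matrix glycoprotein, IL1B, a cytokine, C5AR1, a complement receptor, CCL4 and CCL2, both chemokines, CD36, a scavenger receptor, and ICAM1, an adhesion molecule. ICAM1 went from a mean of 35.8 to 166 RPKM in NB4 and from 27.1 to 33.0 in MM6, a difference of 0.27. The MM6 difference of HGF was 0.26 on this scale, but at its low level that stands for an RPKM ratio of 1.64, so the values of HGF and ICAM1 are not alike as ratios. SGK1 (2.23), CHST2 (1.29) and OLIG1 (1.10) lay within or below the range of 1.80 to 3.11 of the other 6 on this scale, where the place of OLIG1 depends on the pseudocount: it was 2.89 with a pseudocount of 0.1 and 3.74 with voom.

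**Figure D2:**
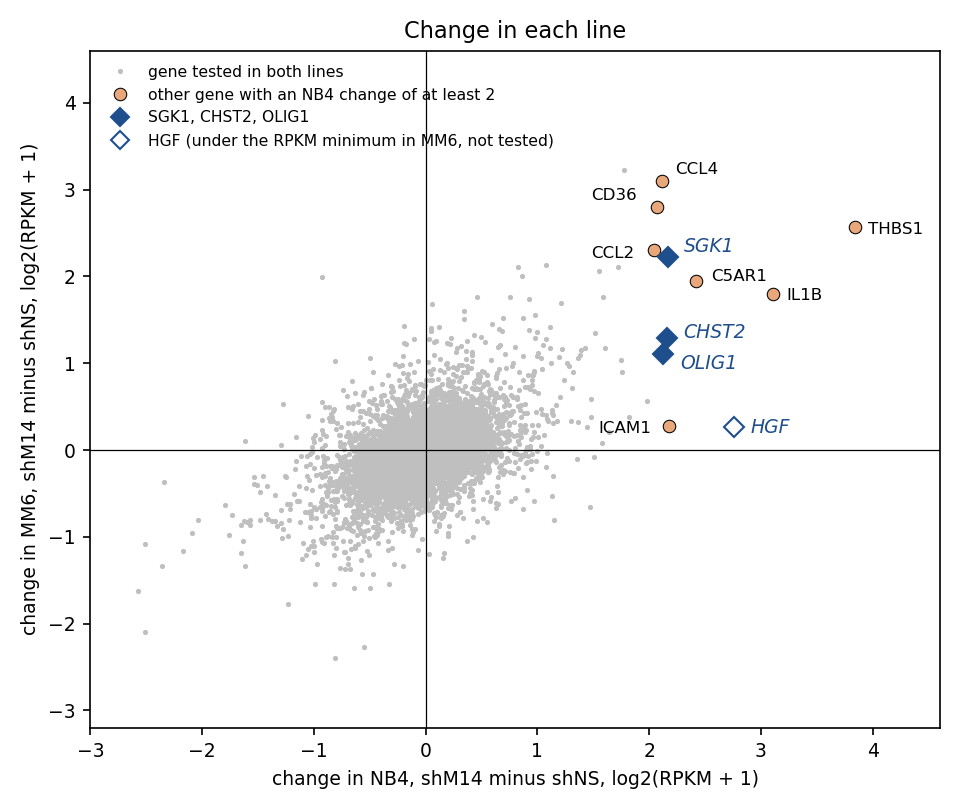
Change with the METTL14 hairpin in MM6 (vertical axis) against NB4 (horizontal axis), both as differences of log2(RPKM + 1); each grey point is a gene tested in both lines. SGK1, CHST2 and OLIG1 (filled diamonds) lie between 1.10 and 2.23 in MM6, and HGF (open diamond, under the RPKM minimum in MM6) lies at 0.26, where the scale compresses its RPKM ratio of 1.64.

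The pathways around the members were followed through 13 lists of 197 genes, of which 164 were listed in the tables. In NB4, 117 of them were tested, 38 rose and 31 fell, so 59.0% were called against 47.4% of all genes tested in NB4. Over all genes 22.1% rose and 25.2% fell there, and the NB4 counts of each list below stand beside these shares. With all 8 libraries in 1 model the number called was 24 instead of 69. In MM6, 123 were tested and none passed. The direction within most lists was mixed in NB4. No list gene changed there by as much as the 2.12 to 2.76 of the members, which were chosen for a large NB4 increase.

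Among the proteases and inhibitors that control cleavage of the HGF chain, 4 were tested in NB4. PLAU, the urokinase gene, rose by 0.33 (limma adjusted p = 0.016) and PLAUR, its receptor, by 0.16 (limma adjusted p = 0.041). SPINT1, an inhibitor of HGF-activating proteases, fell by 0.29 (limma adjusted p = 0.0088). ST14, the membrane protease matriptase, was close to 0 in NB4 and had an MM6 difference of 1.07, from a mean of 13.0 to 27.9 RPKM, which did not pass (limma adjusted p = 0.14). SPINT2, a further inhibitor, had an MM6 difference of -0.99, from 3.46 to 1.24 RPKM, which did not pass either (limma adjusted p = 0.078). PLAU differed by -0.78 in MM6, the opposite sign to NB4 (limma adjusted p = 0.16). None of the 7 genes tested in MM6 was called.

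Of the HGF family, its receptors and the surface proteins that hold it, 6 were tested in NB4, 4 rose and 1 fell; MET itself was not analysed here. SDC2, a heparan sulfate carrier, rose the most, from 8.73 and 8.60 to 19.0 and 17.9 RPKM in NB4 (log2 increase 1.01, limma adjusted p = 0.00042). CD44, which can present HGF to MET, rose by 0.48. MST1R, the receptor of the HGF-like protein, was near 0 in NB4 and went from 1.85 to 0.868 RPKM in MM6 (-0.61, limma adjusted p = 0.15). It entered the MM6 test through its shNS libraries alone. Among the adaptors and relays downstream of MET, 7 of 15 rose in NB4 and 2 fell. STAT3, a transcription factor, rose by 0.45, CRK and SHC1, both adaptors, by 0.42 and 0.32, and PLCG1, a phospholipase, fell by 0.51. None of the 17 tested in MM6 passed, and the medians of this list, 0.088 in NB4 and 0.064 in MM6, lay near those of all genes at -0.0088 and -0.029.

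**Figure D3:**
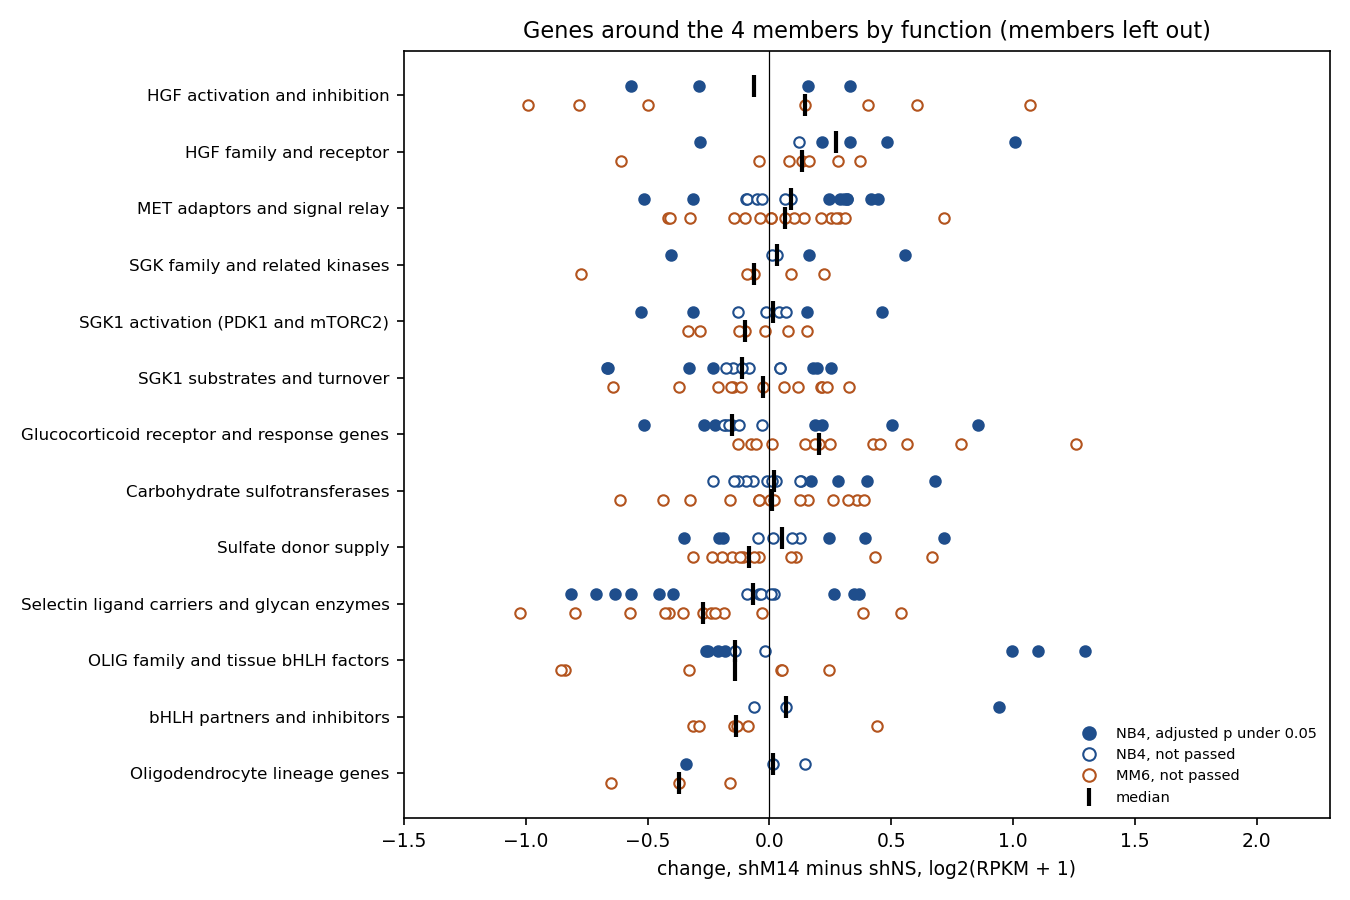
Change with the METTL14 hairpin, as a difference of log2(RPKM + 1), for the tested genes of each list, NB4 in blue and MM6 in orange; filled points passed an adjusted p of 0.05 and vertical bars are medians. Every list median lies near 0, from -0.37 for the oligodendrocyte genes in MM6 to 0.27 for the HGF family in NB4, and all MM6 points are open.

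Around SGK1, the related kinases and their activators showed small NB4 changes. RPS6KB2, an S6 kinase, rose by 0.56, with 2 of 5 kinases higher and 1 lower. MTOR, the catalytic part of the complex that activates SGK1, rose by 0.46, while its partners PRR5 and RICTOR fell by 0.53 and 0.31. Of 13 SGK1 substrates and turnover genes 3 rose and 4 fell in NB4. The substrates NDRG1 and NEDD4L fell by 0.67 and 0.66, and FOXO3 and GSK3B fell by 0.33 and 0.23. Among 13 glucocorticoid receptor and response genes, 4 rose and 5 fell in NB4. DDIT4, an inhibitor of mTORC1, rose by 0.85, FKBP5, a receptor cochaperone, by 0.50, and CDKN1C, a cell cycle inhibitor, fell by 0.51. PRR5, NEDD4L and CDKN1C reached the minimum of 1 RPKM in NB4 through their shNS libraries alone. They could thus enter the NB4 test only by being higher in shNS, which limits their calls and the counts of genes that fell. None of these groups had a called gene in MM6, where the highest difference was 1.26 for CD163, a scavenger receptor of macrophages, from 2.33 to 7.13 RPKM (limma adjusted p = 0.12).

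Of the other 14 carbohydrate sulfotransferases tested in NB4, 4 rose and none fell, where 22.1% of all genes tested rose and 25.2% fell. All 4 rose by less than CHST2 at 2.16, which was chosen for its NB4 increase. They were HS6ST1 (0.68) and HS2ST1 (0.28), which sulfate heparan sulfate, CHST14 (0.40), which sulfates dermatan sulfate, and CHST13 (0.17), which sulfates chondroitin. SLC35B2, which carries the sulfate donor into the Golgi, rose by 0.39, while 3 of 10 genes of the sulfate supply fell, SUMF2 by 0.35. Of 14 carriers and glycan enzymes of selectin ligands 3 rose and 6 fell. C1GALT1, which starts core O-glycans, fell by 0.81, the fucosyltransferase gene FUT4 by 0.71, the galactosyltransferase gene B4GALT1 by 0.64 and PODXL, a mucin-like carrier, by 0.45. In MM6 the differences of C1GALT1 and FUT7, a fucosyltransferase gene, were -0.80 and -1.02 and did not pass (limma adjusted p = 0.10 and 0.21).

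In the list around OLIG1, 9 tissue-type basic helix-loop-helix genes were tested in NB4, of which 3 rose and 4 fell. OLIG2, the paralog of OLIG1, rose from 16.2 and 15.3 to 40.0 and 40.0 RPKM in NB4 (1.29, limma adjusted p = 0.00024). In MM6 OLIG2 was at 0 in both shNS libraries and at 0.0139 and 0.0684 RPKM in the shM14 libraries. MSC, the repressor musculin, rose by 1.10 from a mean of 0.809 RPKM, BHLHE41, a circadian repressor, rose by 0.99 from 2.39 RPKM, and BHLHE40 fell by 0.26. ID2, which blocks DNA binding by basic helix-loop-helix factors, rose by 0.94. Of 3 oligodendrocyte lineage genes tested, MBP fell by 0.34 and none rose.

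The genes beside the members on their chromosomes were read next, 5 on each side in RefSeq gene order. Around OLIG1 on chromosome 21, 7 neighbours were tested in NB4, of which 6 rose and 1 fell, where 22.1% of all genes tested in NB4 rose and 25.2% fell. Besides OLIG2 these were the interferon and interleukin receptor genes IFNAR2 (0.52), IFNGR2 (0.50), IFNAR1 (0.26) and IL10RB (0.16) and the antisense gene IL10RB-AS1 (0.69), and PAXBP1 fell by 0.29. The strand of the authors' counting is not stated, so reads of IL10RB-AS1 and the genes it overlaps cannot be told apart. Around HGF 3 neighbours were tested in NB4, where CD36 rose by 2.07 and DMTF1 fell by 0.21. CD36 entered the NB4 test through its shM14 libraries alone. Around SGK1 6 were tested, and TBPL1 and HBS1L rose by 0.25 each. Around CHST2 4 were tested, of which 1 rose and 3 fell, PLSCR1 by 1.14. No neighbour of any member was called in MM6, where CD36 differed by 2.81 (limma adjusted p = 0.092).

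**Figure D4:**
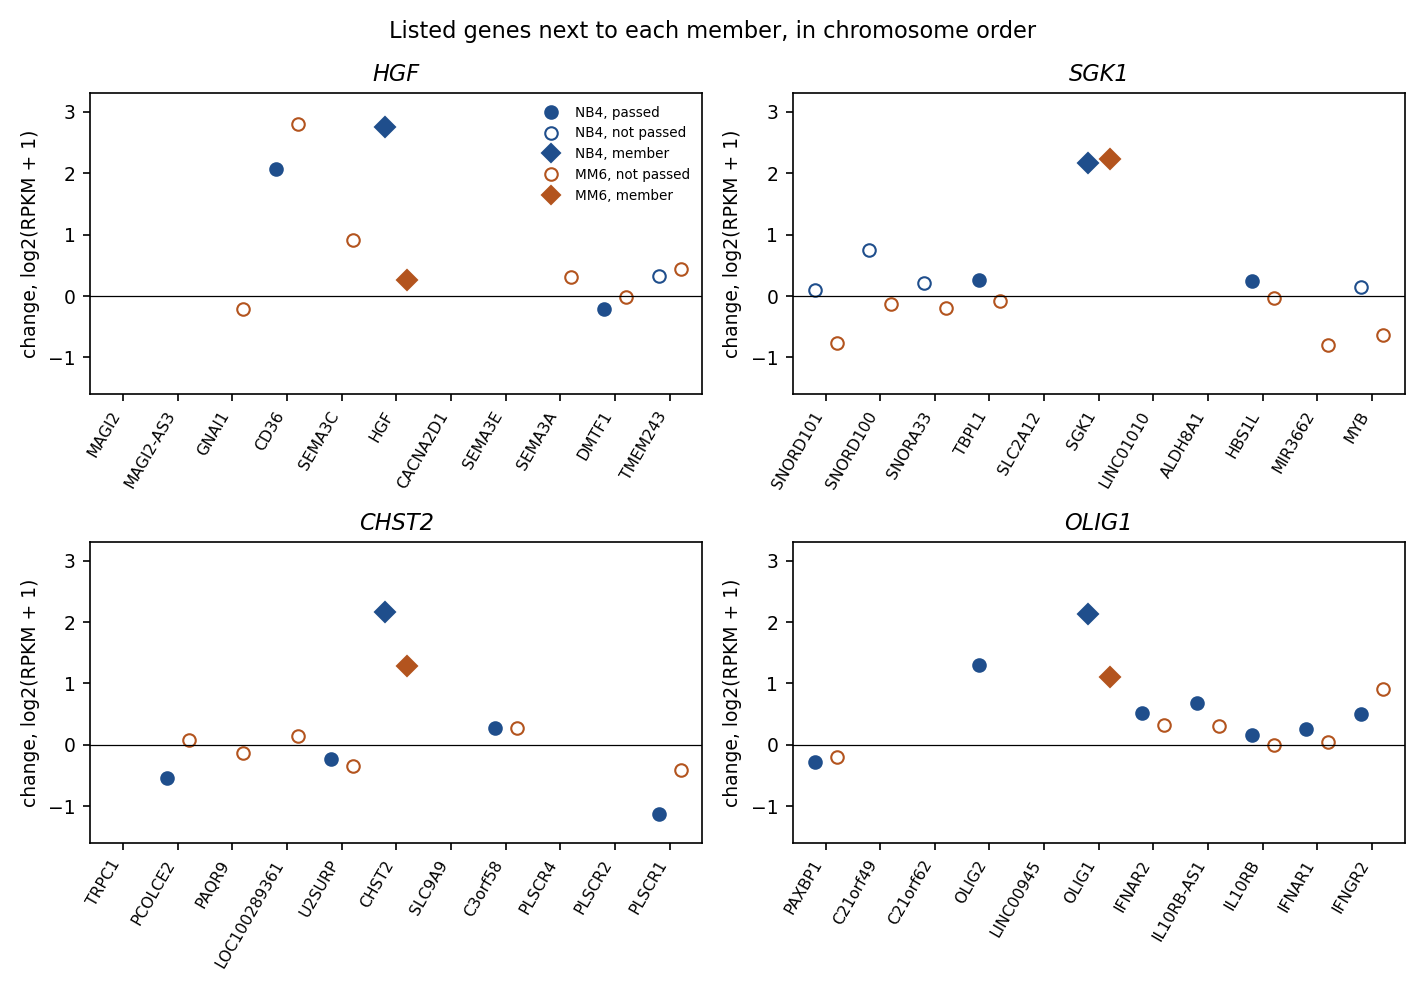
Change with the METTL14 hairpin, as a difference of log2(RPKM + 1), for the genes at 5 places on each side of every member, in chromosome order and without distances; diamonds are the members, filled circles passed an adjusted p of 0.05 and genes without a point were not tested. Around OLIG1 6 of 7 tested neighbours rose in NB4 by 0.16 to 1.29 (22.1% of all genes rose), below the 2.12 of OLIG1, and around HGF the one large change is CD36.

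Last, the genes whose pattern over the 8 libraries was most like each member were ranked by Pearson correlation of log2(RPKM + 1) among 11972 genes. The 8 points share 2 lines and 4 groups, so these values describe the ranking only. HGF was most like MSC, MIR181B1, EPX, RAB27B and ADORA3 (r of 0.995 to 0.996), all of them low or at 0 in MM6 and higher in NB4 shM14; EPX, the eosinophil peroxidase gene, went from 1.96 to 6.14 RPKM in NB4. MIR181B1 is a miRNA gene, and its reads cannot be told apart here from those of a longer transcript that spans it. OLIG1 was most like EIF5A2 (r = 0.999), BHLHE41, EP300 and LTB, of which LTB, a cytokine gene, went from 2.53 to 7.11 RPKM in NB4 and from 0.150 to 0.616 in MM6. SGK1 was most like PTP4A2 (r = 0.985), UGCG, PTPRJ, CERS2 and NTMT1, which were expressed in both lines and higher in MM6. CHST2 was most like GATAD2A (r = 0.984), IQGAP1, STAT3, ARPC1A and IL10. IL10, an inhibitory cytokine, went from 0.306 to 1.76 RPKM in NB4 and from 0.148 to 1.06 in MM6. Between members, r was 0.98 for HGF with OLIG1, 0.69 for CHST2 with OLIG1, 0.66 for CHST2 with HGF and 0.62 for CHST2 with SGK1. SGK1, the member with the higher level in MM6, had an r of -0.13 with HGF and -0.075 with OLIG1.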

How the data were processed

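Poly(A) RNA-seq of 8 libraries was used through 1 deposited table per line. Not given in the sources used here were the authors' aligner, counter, genome build, annotation and strand setting. The deposited RPKM values of each library are the authors' reads scaled to gene length and library depth, a unit worked out from the values. The signal columns are group means of scaled reads computed by the authors. The ratio and log2 columns hold, per the file headers, the fold change of shM14 over shNS and its log2. Columns of p-values, raw and adjusted, come from the authors, who do not name their test. No per-sample column was left without a sample (0 columns).

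Genes with at least 1 RPKM in at least 2 of 4 libraries of a line were kept, and log2(RPKM + 1) was fitted per line with limma 3.58.1 in R 4.3.3 (Benjamini-Hochberg threshold 0.05). This scale understates changes of low genes. RPKM and group means together gave whole reads for 100% of values within 0.01, which supplied depth, exact binomial intervals and voom. The fit was tested on simulated data: of 200 genes changed 4-fold, 100% were called in NB4 and in MM6, on 11374 and 11767 genes. The simulated spread was set alike for both lines, with no gap between library numbers. In the deposited data the SD of number 1 minus number 2 was 0.34 and 0.37 in MM6, against 0.15 and 0.13 in NB4 (shNS and shM14). The simulation therefore checks the code and does not give the share of 4-fold changes that the MM6 test would call. Tables, intervals and plots were made in Python 3.11.15 using pandas 2.3.3 with numpy 2.4.6, then scipy 1.17.1 and, for plots, matplotlib 3.10.9.

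The members and lists were chosen with earlier results of these data known. Besides METTL14 and the members, the text names up to 4 genes per list with the smallest p in either line, the 5 genes most like each member and 5 neighbours on each side. Markers, the 7 other NB4 genes and the genes said so were named outside this rule. A few genes within the rule are not reported. RefSeq gene order was matched by gene ID for 16662 of 16726 genes. Alternatives were a pseudocount of 0.1, no minimum, a minimum of 5 RPKM, a replicate block, all 8 libraries in 1 model, a variance trend, median-of-ratios scaling, voom, and leaving out each library. No minimum together with all 8 libraries or with voom, and the test of the difference between lines, were added after the values were seen.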

Additional observations from a re-analysis of the deposited data

Results flagged for a closer look

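The change with the METTL14 hairpin differed between lines for 374 of 12804 genes (limma interaction over all 8 libraries, adjusted p under 0.05). That model shares the spread between lines. The SD of number 1 minus number 2 was 0.34 and 0.37 in MM6, against 0.15 and 0.13 in NB4 (shNS and shM14). The spread of the MM6 part can thus be understated and the count too high. Of the 374 genes, 10 from the pathway lists are given here. The difference is given as the MM6 change minus the NB4 change on the log2(RPKM + 1) scale, and the members were not put to this test because their NB4 change chose them. Around HGF, it was -1.11 for PLAU, -0.99 for SPINT2 and -0.64 for MST1R. In the SGK1 lists it was 0.63 for the substrate NEDD4L, -0.91 for DDIT4 and 0.96 for CDKN1C. Among the sulfotransferases it was -0.57 for CHST11, a chondroitin sulfotransferase gene, and -0.66 for HS6ST1. Among the basic helix-loop-helix genes it was -1.24 for OLIG2 and -1.10 for MSC. OLIG2 and MSC were at or near 0 RPKM in MM6, and SPINT2 and MST1R were near 0 in NB4. NEDD4L and CDKN1C were under 1 RPKM in every MM6 library and were not tested in the MM6 fit.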

How the results depend on the processing

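The MM6 differences kept their sign for SGK1, CHST2, OLIG1 and METTL14 in every alternative that gave a value, and their side of the threshold depended on how the spread was estimated. With the replicate block the MM6 values of 2.23 (SGK1), 1.29 (CHST2), 1.10 (OLIG1) and -0.88 (METTL14) had limma adjusted p of 0.0032, 0.0044, 0.0060 and 0.0089. The labels state no pairing; the deviations of number 1 from number 2 correlated between arms at 0.69 in MM6 and 0.068 in NB4. With all 8 libraries in 1 model these 4 values had an adjusted p of 0.020, 0.0013, 0.0017 and 0.0031, and without a minimum as well 0.030, 0.0016, 0.0019 and 0.0039. With voom CHST2 was 1.61 (adjusted p = 0.043), and with voom and no minimum CHST2 was 1.61 (0.032) and OLIG1 3.74 (0.044). Leaving out 1 library gave MM6 values of 1.60 to 2.85 for SGK1 (limma adjusted p 0.064 to 0.29), 1.22 to 1.36 for CHST2 and 1.04 to 1.16 for OLIG1; OLIG1 gave no value without an MM6 shM14 library or at a minimum of 5 RPKM, since it then fell under the minimum. A library left alone in its group is assumed to vary like the other group. The NB4 values of HGF, SGK1, CHST2 and OLIG1 moved to 2.91, 2.33, 2.50 and 2.26 with a pseudocount of 0.1 and to 2.93, 2.35, 2.54 and 2.28 with voom, with or without a minimum.

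The number of genes called in MM6 was 9, and it was 0 without a minimum, 4 at 5 RPKM, 12 with a pseudocount of 0.1, 3 with median-of-ratios scaling, 39 with voom (124 without a minimum), 1405 with the replicate block, 1315 with all 8 libraries (1399 without a minimum) and 5 to 23 without 1 library. In NB4 it was 5460, and 1769 with all 8 libraries (1869 without a minimum) and 3049 to 4637 without 1 library. Of list genes, 69 were called in NB4, against 24 and 27 with all 8 libraries and 40 to 54 without 1 library; in MM6 it was 0, against 20 with the replicate block and 19 with all 8 libraries, with or without a minimum. Single MM6 values that changed sign were DDIT4 (-0.17 to 0.062 without 1 library, above 0 at 0.043 without shNS replicate 1 and 0.062 without shM14 replicate 1) and HS6ST1 (-0.046 to 0.085, below 0 without shNS replicate 2). The cause was not tested. Depth limits HGF and OLIG1 in MM6, which rest on at most 102 reads in a library.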
